A study of Mus musculus with 6 samples.

Results

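RNA bisulfite sequencing of cultured mouse cortical neurons left 378 cytosines of nuclear genes that stayed unconverted in dense groups, and these clustered positions are described here. They were taken from 3090 positions that passed a filter of 20 or more reads, a methylation level of 10% or more, and 6 or more unconverted reads in both replicates of at least 1 time point. The methylation level is the percentage of reads at a cytosine in which the base was still read as C. A clustered position lay in a named nuclear gene, had at least 3 other passing positions within 75 nt on the same strand, and had no repeat with a period of 1 to 6 nt in its sequence context. Of the other passing positions, 864 were mitochondrial, 721 had a periodic context, 670 had no gene named, and 457 were isolated positions of nuclear genes. The 378 positions formed 43 clusters in 39 genes, and they were chosen for their level, so that levels are given below as a description.

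The neurons came from the cortex of wild-type C57BL/6 embryos of both sexes at E16.5, pooled and grown for 7 days in vitro. All 3 groups were silenced overnight with 1 µM tetrodotoxin, a sodium channel blocker, and 100 µM DL-AP5, a blocker of NMDA receptors, and then received 55 mM KCl for 2 h or 6 h or were harvested at 0 h, with 2 biological replicates per group and 6 libraries in total. KCl depolarization of a whole dish is a model of neuronal activity that reaches every cell at once. The libraries listed between 1559828 and 2374392 cytosines, with a median coverage of 324 to 480 reads. Among cytosines with at least 5000 reads, 0.0837% to 0.0869% of reads were unconverted in 5 libraries and 0.115% in KCl 6 h replicate 1, which had the highest levels in the 3′ UTR clusters of Ywhaz, Ywhag, and Gng2. The neuronal markers Tubb3, Map2, Rbfox3, Snap25, Syt1, and Stmn2 were listed in every library, and so were the 5 astrocyte markers and 4 of 5 markers of the oligodendrocyte lineage. Of the 5 microglial markers, Cx3cr1 (438 listed cytosines) and Aif1 (14) were listed, and Csf1r, C1qa, and Tmem119 were not. Of the endothelial markers, Pecam1 (6 listed cytosines) was listed, and Cldn5 and Flt1 were not.

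In RNA bisulfite sequencing, bisulfite deaminates unmethylated cytosine to uracil, which is read as T, while 5-methylcytosine (m5C) resists and is read as C. In mRNA, NSUN2 and NSUN6 are among the methyltransferases known to place m5C, NSUN2 next to a G-rich 3′ flank in a short stem-loop and NSUN6 at a CTCCA sequence. Bisulfite reacts with single-stranded nucleic acid, and cytosines held in a stable double strand are known to react poorly. A read that comes from another copy of a sequence can also carry C where the converted reference copy would carry T. The lists used here were deposited before the filters of the study that remove reads with many unconverted cytosines and positions in predicted structure.

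The clusters lay throughout the transcript. The coding sequence held 11 clusters with 84 positions, the 3′ UTR 8 clusters with 75, the 5′ UTR 8 clusters with 55, and introns 14 clusters with 145. A noncoding exon held 1 cluster of 9 positions, and 1 cluster of 10 positions lay where the 5′ UTR of Cenpb overlaps an intron of Spef1. All 43 clusters were on the strand of their gene, and no cytosine was listed on the opposite strand of any of them. A cluster held 1 to 30 of the positions (median 8) over 1 to 122 nt (median 23).

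By the base composition of the span with 10 nt to each side, a division made after the data had been seen, the clusters fell into 28 GC-rich clusters (GC of at least 65%), 11 G-poor clusters (G under 10%), and 4 others. The GC-rich clusters held 207 positions in 26 genes and the G-poor clusters 129 positions in 9 genes. All 11 G-poor clusters were intronic. At all 3 time points 203 of the 378 positions passed, of which 118 were GC-rich and 80 G-poor, while 72 passed at 2 time points and 103 at 1.

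The GC-rich clusters carried short perfect inverted repeats, in which a stretch is followed by its own reverse complement. The windows below show this, with the passing positions in capitals and 20 nt added to each side, in GRCm38 coordinates. They come from coding or noncoding exons, both arms of each held clustered positions, and Usp19 and Rusc1 were added to the named genes after their values had been seen. Usp19 lies at chr9:108501252-108501314 on the plus strand, Rusc1 at chr3:89092310-89092370 on the minus strand, Fam8a1 at chr13:46670076-46670181 on the plus strand, Fastk at chr5:24445056-24445137 on the minus strand, Samd1 at chr8:83997692-83997754 on the plus strand, and Ajm1 at chr2:25577919-25577975 on the minus strand, all in coding sequence. The noncoding exon of 1700020I14Rik lies at chr2:119594341-119594410 on the plus strand.
Usp19: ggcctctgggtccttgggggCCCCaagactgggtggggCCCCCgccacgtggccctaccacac
Rusc1: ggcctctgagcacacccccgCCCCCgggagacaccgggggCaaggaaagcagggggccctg
Fam8a1: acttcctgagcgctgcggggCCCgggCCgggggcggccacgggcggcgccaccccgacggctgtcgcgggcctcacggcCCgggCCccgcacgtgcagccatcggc
Fastk: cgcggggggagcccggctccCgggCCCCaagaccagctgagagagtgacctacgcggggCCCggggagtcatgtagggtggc
Samd1: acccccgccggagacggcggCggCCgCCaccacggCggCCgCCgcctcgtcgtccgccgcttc
Ajm1: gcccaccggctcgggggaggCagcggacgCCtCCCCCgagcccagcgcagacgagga
1700020I14Rik: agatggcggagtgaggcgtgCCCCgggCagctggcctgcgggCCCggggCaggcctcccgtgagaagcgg

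For clusters in untranslated regions only the arms are shown, 5′ arm and then 3′ arm. The arms of Mad2l2 (chr4, plus strand) and Zc3h4 (chr7, plus strand) lie in the 3′ UTR, as do those of Junb (chr8, minus strand), and the arms of Kcnip2 (chr19, minus strand) lie in the 5′ UTR. In each pair the second arm is the reverse complement of the first, and the capitals fall on both arms. Zc3h4 was picked for its 17-nt arms, after its values had been seen.
Mad2l2, 5′ arm: ggggCCCC
Mad2l2, 3′ arm: ggggCCCC
Zc3h4, 5′ arm: gggccCCagCCttggCC
Zc3h4, 3′ arm: ggCCaaggCtggggccc
Junb, 5′ arm: cgCCtgCCCCCC
Junb, 3′ arm: ggggggCaggCg
Kcnip2, 5′ arm: cCCggCgCCCC
Kcnip2, 3′ arm: ggggCgCCggg

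Among the GC-rich positions, 179 of 207 (86.5%) lay in an arm of a perfect inverted repeat with arms of at least 6 nt and a loop of 3 to 60 nt. All positions were in an arm in 22 of the 28 clusters, some in 2, and none in 4. The arms of 17 clusters held clustered positions on both sides, and those of 7 on 1 side. Over all 378 positions, 187 (49.5%) lay in such an arm, against 151 of 457 isolated positions (33.0%) and 247 of 1659 low-level cytosines of the same genes (14.9%), which had a level under 1% and at least 20 reads in all 6 libraries. Among cytosines with a GC content of at least 65% in the surrounding 51 nt, the arms held 30 of 213 low-level cytosines (14.1%) and 57 of 127 isolated positions (44.9%). These shares are descriptions, because positions of 1 cluster share a repeat.

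Long arms were rare among the other cytosines. With arms of at least 10 nt, the share was 54.1% for GC-rich clustered positions, 1.75% for isolated positions (8 of 457), and 0 of 1659 for low-level cytosines. The median GC content of the surrounding 51 nt was 78.4%, 60.8%, and 52.9% in these 3 sets. Shares at 5 nt and 10 nt were not matched for GC, so that base composition and clustering cannot be told apart there. At 5 nt, isolated positions (63.0%) were in an arm more often than all clustered positions together (56.3%), since only 9.30% of the G-poor positions were.

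**Figure D1:**
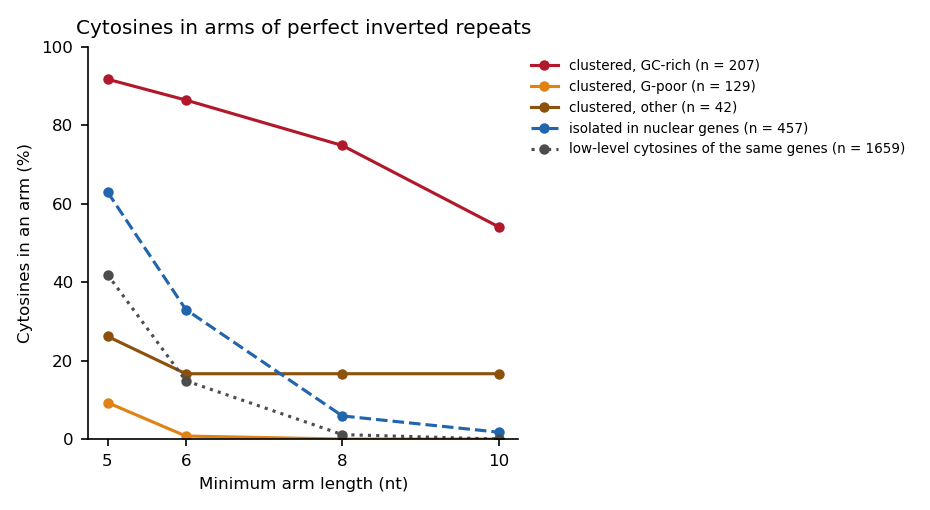
Share of cytosines (y axis, %) that lie in an arm of a perfect inverted repeat, by the minimum arm length (x axis, nt), for the 3 kinds of clustered positions, isolated positions, and low-level cytosines of the same genes. The GC-rich line stays above the others, at 91.8% for 5 nt and 54.1% for 10 nt. The sets are not matched for GC content.

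Over all GC-rich spans, 180 of 233 cytosines in an arm of any inverted repeat (77.3%) and 40 of 98 outside all arms (40.8%) passed the filter. For the 17 clusters with positions on both sides, 1 inverted repeat per cluster was taken, and 144 of 183 cytosines in its arms (78.7%) passed. None of the 99 cytosines in the loops of these repeats passed, although 41 of them lay in an arm of another inverted repeat and 58 in none, and 56 were listed in no library, which means that in each library they had no unconverted read or fewer than 10 reads. The 17 clusters were picked for passing positions in both arms, and where a cluster had several inverted repeats the one that held the most clustered positions was taken. Both choices raise the share of the arms and lower that of the loops, so that this contrast is a description. The highest level of a listed loop cytosine in any library was 4.5% in Rgp1, 3.6% in Fastk, 3.3% in Fam8a1, and 30.4% in Kcnip2, the exception among the 17. In the other clusters with a listed loop cytosine it was at most 2.7%.

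**Figure D2:**
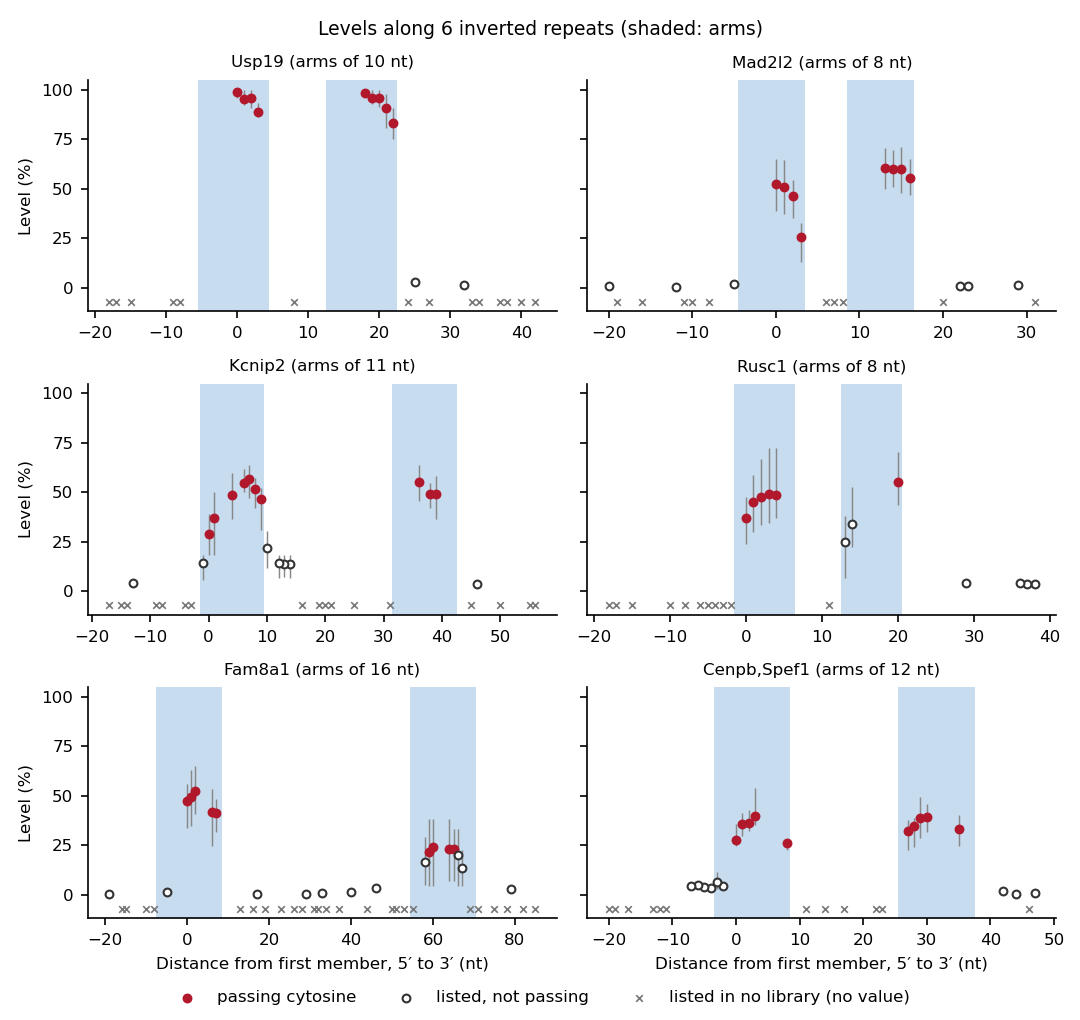
Methylation level (y axis, %; points are means over the libraries and vertical lines the range over libraries) against distance from the first clustered position (x axis, nt, 5′ to 3′) along 6 inverted repeats, with arms shaded and crosses below 0 marking cytosines listed in no library. Filled points lie inside the shaded arms, and loop cytosines are open points near 0 or crosses, apart from the Kcnip2 loop with a mean of 16%.

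The predicted pairing also differed between the kinds of clusters, but these kinds were divided by base composition. C pairs with G, so that low values for G-poor and high values for GC-rich positions follow in part from the division. Folded with RNAfold at 70 °C, a temperature used in the bisulfite reaction of the study, in a window of 75 nt to each side, clustered positions had a median pairing probability of 0.566 with quartiles of 0.0213 and 0.996. This median was 0.899 at 37 °C and 0.935 with 150 nt to each side, settings at which isolated positions and low-level cytosines were not folded. The median was 0.994 for GC-rich and 0.00212 for G-poor positions. It was 0.458 for isolated positions and 0.451 for low-level cytosines, and among those with a GC content of at least 65% it was 0.464 and 0.455. The median GC content of the 51 nt was 78.4% for GC-rich clustered positions and 72.5% and 68.6% for these last 2 sets. Whether pairing, methylation, or both kept these cytosines unconverted was not tested.

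The letters GGG at bases +2 to +4 after the cytosine, read on its own strand only, followed 22 of 378 clustered positions (5.82%), 117 of 457 isolated positions (25.6%), and 28 of 1659 low-level cytosines (1.69%). All 22 were among the 207 GC-rich positions (10.6%), and at a GC of 65% or more GGG followed 7 of 213 low-level cytosines (3.29%) and 41 of 127 isolated positions (32.3%). CTCCA with the position as its first letter was found at 1 clustered position (0.265%), 10 isolated positions (2.19%), and 10 low-level cytosines (0.603%). Another C was directly adjacent to 292 clustered positions (77.2%), 171 isolated positions (37.4%), and 818 low-level cytosines (49.3%).

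The highest level of a GC-rich cluster was that of Usp19, which encodes a deubiquitinating enzyme. Levels are given below in the order of replicate 1 and replicate 2. The 9 positions of Usp19 averaged 93.6% and 93.1% before KCl, 97.5% and 94.3% after 2 h, and 90.3% and 93.9% after 6 h, at a median coverage of 28 to 87 reads. Every position was above 75% in every library, in both arms, and the 1 remaining cytosine of the span, in the loop, was listed in no library.

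Mad2l2, which encodes an accessory subunit of DNA polymerase zeta, came next among the GC-rich clusters named by rule. Its 8 positions averaged 58.2% and 60.2% before KCl. They averaged 40.6% and 46% after 2 h of KCl, below both 0 h libraries, and 44.7% and 58.6% after 6 h. Within the cluster, the last cytosine of the 5′ arm, at position 148145459, was the lowest in each library, with a mean of 25.5%, while the 4 positions of the 3′ arm averaged 55.3% to 60.6%. Kcnip2, which encodes a protein that binds Kv4 potassium channels, had levels of 50.9% and 50.5% before KCl and of 46.1% and 48.6% after 2 h. At 6 h it was covered by only 10 to 11 reads and 6 positions averaged 35.6% in replicate 1, while 1 position was listed in replicate 2.

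The cluster shared by Cenpb, which encodes a centromere protein, and Spef1 lay between 29% and 37.4% in the 6 libraries, and the 0 h libraries were both its lowest and its highest. Samd1, whose product binds CpG islands, had 25.1% and 27.3% before KCl, 36.3% and 29.5% after 2 h, and 29% and 19.1% after 6 h. For Cenpb and Spef1 the 6 h libraries overlapped with those of the other times. For Samd1 they overlapped with those of 0 h and both lay below both 2 h libraries, with 0 of 9 positions called between 2 h and 6 h. The lowest mean over libraries among GC-rich clusters was that of Sema4c, which encodes a semaphorin, with 2.42% and 4.34% before KCl, 5.48% and 21.1% after 2 h, and 18% and 18.4% after 6 h, at a median coverage of 28 to 42 reads. Its positions passed only at 6 h and were thus chosen by their 6 h levels. This choice favours high levels at 6 h, so that the contrast with 0 h is a description. Its 2 h libraries differed from each other by more than replicate 1 did between 2 h and 6 h. Tshz1, a zinc finger transcription factor gene, had levels between 9.73% and 16.9%.

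The inverted repeats of Mgat4b and Cmss1 had the most reads behind their levels. Mgat4b, which encodes a glucosaminyltransferase of N-glycan synthesis, had a median coverage of 1350 to 1930 reads and levels of 17.8% and 19.7% before KCl, 17.5% and 18% after 2 h, and 14% and 17.5% after 6 h, and its loop cytosines stayed at or under 0.4%. Cmss1 had a coverage of 1506 to 2044 reads and levels between 23.4% and 27.5%, and its 3 loop cytosines stayed at or under 0.2%. Its window lies in an intron at chr16:57391565-57391620 on the minus strand, and the same letters occur once more in GRCm38, at chr15:86194775-86194830 on the plus strand. Both genes were picked for their coverage after their values had been seen.
Cmss1: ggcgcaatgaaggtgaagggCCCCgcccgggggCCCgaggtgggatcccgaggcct

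Junb, an AP-1 transcription factor gene of the immediate early class, was the 1 gene of 18 on a list of immediate early genes with clustered positions. Its 10 positions averaged 35.3% and 26.6% after 2 h and 35.9% and 22.7% after 6 h, and no position was listed at 0 h. Over the whole gene, the 0 h libraries listed 52 and 6 cytosines, the 2 h libraries 229 and 236, and the 6 h libraries 112 and 103. The cytosines listed at 0 h had a median coverage of 32 and 144.5 reads. The missing values at 0 h thus go with a sparsely listed transcript, and no level can be given for 0 h. A cytosine is missing with fewer than 10 reads or with no unconverted read, and these cannot be told apart here. Nor can fewer cells with the transcript and less of it per cell. Lists of 15 genes of the neuronal cytoskeleton, 12 neuronal long noncoding RNAs, 13 genes of translation, and 6 transcripts with rRNA-like sequence, of which 11 of the noncoding RNAs and 3 of the rRNA-like transcripts were listed, held no clustered position.

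A group of GC-rich clusters consisted of CCG or CGG repeats, and 2 genes held both kinds close together. Usp7, which encodes a deubiquitinating enzyme, had 5 positions in a CCG run and 4 in a CGG run, 118 nt apart in an intron, and the longest stretch of one that was complementary to the other was 25 nt. They lie at chr16:8738436-8738486 and chr16:8738565-8738617 on the minus strand, the CGG run upstream. Capitals mark all passing positions, some of which have a periodic context and are not among the 9.
Usp7, CGG run: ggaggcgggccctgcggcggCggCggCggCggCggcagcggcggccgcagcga
Usp7, CCG run: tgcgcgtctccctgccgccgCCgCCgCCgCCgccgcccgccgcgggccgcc
The CCG run had levels of 13.5% and 14.3% before KCl, 19.6% and 11.1% after 2 h, and 12.1% and 14.7% after 6 h. At the same times the CGG run had 28.6% and 27.1%, 40.3% and 24.9%, and 31.2% and 29.4%. In every library the CGG run was the higher of the pair.

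Ids, which encodes the lysosomal enzyme iduronate 2-sulfatase, had the same arrangement, with 10 positions in a CCG run of the coding sequence and 3 in a CGG run of the 5′ UTR, 75 nt apart with a complementary stretch of 18 nt. The coding run had 25% and 27.3% before KCl, 29.9% and 21.7% after 2 h, and 23.1% and 28.2% after 6 h at a median coverage of 447 to 623 reads. At the same times the 5′ UTR run had 35% and 46.3%, 43.2% and 35%, and 38.2% and 43.7%, again higher in every library. For both genes the time points overlapped, apart from the CGG run of Usp7 at 0 h and 6 h. There both 6 h libraries lay above both 0 h libraries, with 0 of 4 positions called. At 2 h, both runs of both genes were higher in replicate 1 than in replicate 2.

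The G-poor clusters were of another kind. Their 129 positions had a median level of 98.0%, with 70 above 90%, whereas the GC-rich positions had a median of 25.7%, with 7 above 90% and 127 under 30%. Soft-masked repeat sequence of the genome held 126 of the 129. In an arm lay 1 of the 129, but a C in an arm needs a G opposite, which the division by G content makes rare. They are shown by the window at chr1:173362803-173362955 on the plus strand in an intron of Aim2, in which high and low cytosines stand side by side.
Aim2: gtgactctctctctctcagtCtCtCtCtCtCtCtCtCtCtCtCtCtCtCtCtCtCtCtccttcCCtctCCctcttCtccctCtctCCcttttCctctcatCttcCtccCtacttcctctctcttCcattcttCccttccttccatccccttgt
In this window the capitals mark all passing positions, of which those with a periodic context are not counted as clustered.

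Aim2, which encodes a cytosolic DNA sensor, had nearly the same mean level in every library, with 74.5% and 74.6% before KCl, 74.5% and 74.8% after 2 h, and 74.7% and 74.4% after 6 h. Of its 23 positions, 14 were above 90%. The 25 cytosines of the span that did not pass had levels of 0.2% to 1.15% where listed, and 3 of them were not listed. High and low positions thus stood side by side in this intron.

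Hs3st5, which encodes a heparan sulfate sulfotransferase, had the most positions of any cluster, 30, with mean levels between 75.1% and 80.8% in the 6 libraries. Single positions ranged from 14.4% to 100% as means, and 15 were above 90%. Some intermediate levels moved between libraries in opposite ways at positions a few bases apart, as in the pair below, which was picked after the values had been seen and is given with no test. At position 36690481, the levels were 51.9% and 46.7% before KCl, 63.6% and 30% after 2 h, and 33.3% and 58% after 6 h. At position 36690484, they were 45.3% and 37.9%, 30.4% and 65%, and 59.3% and 36.6%. The first was the higher in 4 libraries, and the second in KCl 2 h replicate 2 and KCl 6 h replicate 1. Position 36690483, between them, followed neither in all libraries, with 13% and 33.3% before KCl, 10.5% in KCl 2 h replicate 2, the 1 library of 2 h that listed it, and 43.5% and 12.8% after 6 h.

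In Wwp2, which encodes an E3 ubiquitin ligase, all 13 clustered positions had a level of 100% in every library that listed them, and so had the 8 cytosines of the span that did not pass, at a median coverage of 12 to 39 reads. In the same way, both clusters of AC150274.2 had levels of 99.7% to 100%, and 4933436I20Rik had a cluster of 4 positions at 96.8% to 100%. Its second cluster, 21807 nt away with 14 positions, had 44.6% to 52.9%. Trappc3l, a paralog of a TRAPP trafficking complex subunit, had 37.6% and 35.6%, 36.9% and 35.7%, and 35.6% and 36.9%.

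The sequence around G-poor positions was rarely unique. The 21-nt context occurred once in GRCm38 for 32 of 129 G-poor positions (24.8%), with a median of 50 copies, against 161 of 207 GC-rich positions (77.8%) and 435 of 457 isolated positions (95.2%). With every C changed to T, as in a fully converted read, no G-poor context was unique, and 45 GC-rich contexts (21.7%) and 197 isolated contexts (43.1%) were. Reads longer than 21 nt can be placed where these cannot. The part of misplaced reads in these levels was not tested.

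**Figure D3:**
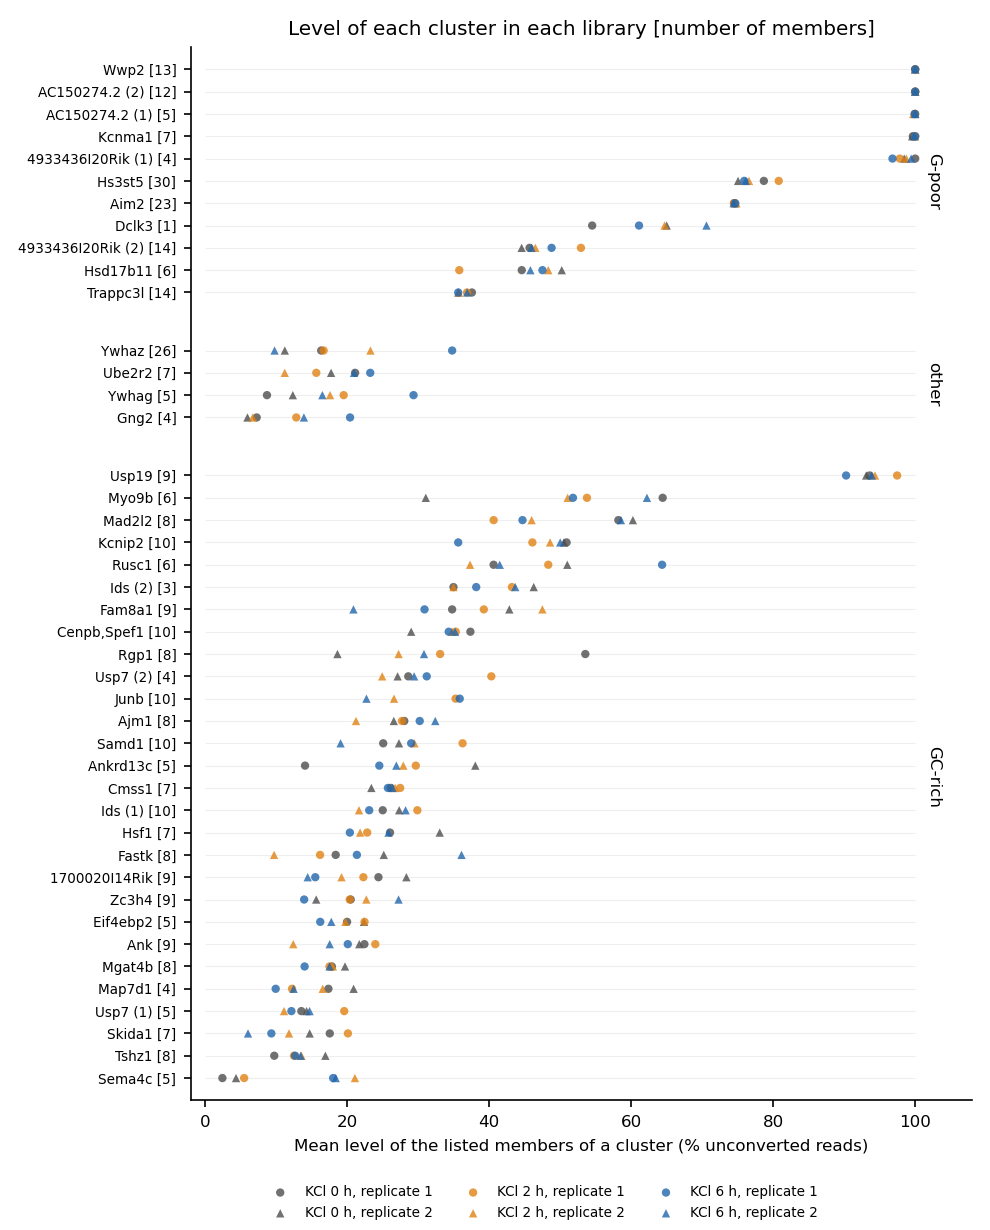
Mean methylation level of the clustered positions of each cluster (x axis, % unconverted reads) in each of the 6 libraries (colour: time of KCl; shape: replicate), for G-poor, other, and GC-rich clusters (rows, with the number of positions in brackets). G-poor clusters span 36.2% to 100%, with libraries almost on top of each other for those near 100% and for Aim2 and more spread for Dclk3 and Hsd17b11, whereas most GC-rich clusters lie under 60% with Usp19 at 93.8%.

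The 4 other clusters lay in the 3′ UTRs of Ywhaz, Ywhag, and Gng2 and in the 5′ UTR of Ube2r2, and had low levels, with means of 11.2% to 18.7%. Ywhaz encodes a 14-3-3 adaptor protein, and its 26 positions were almost equal within a library and unequal between libraries. They averaged 16.3% and 11.2% before KCl, 16.7% and 23.3% after 2 h, and 34.8% and 9.77% after 6 h. All 26 passed only at 2 h, and this choice favours high levels in both 2 h libraries. The lowest and highest positions were 12.5% and 20.9% in KCl 0 h replicate 1, 21.4% and 26.1% in KCl 2 h replicate 2, 26.3% and 41.7% in KCl 6 h replicate 1, and 6.7% and 11.5% in KCl 6 h replicate 2, so that the last 3 libraries did not overlap. The 16 cytosines of the span that did not pass averaged 16.8% to 20.3%, close to those that did. Every cytosine of this 89-nt span was thus about equally unconverted, and the highest library was KCl 6 h replicate 1, the one with the highest unconverted share over deep cytosines. The part of that share in these levels was not tested, and the same library was the lowest in other clusters, such as Mgat4b and Usp19.

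Ywhag, which encodes another 14-3-3 protein, had 8.70% and 12.3% before KCl, 19.5% and 17.6% after 2 h, and 29.3% in replicate 1 after 6 h, with replicate 2 below both 2 h libraries. Gng2, which encodes a G protein gamma subunit and had the lowest mean of any cluster, had 7.25% and 5.95% before KCl, 12.8% and 6.70% after 2 h, and 20.4% and 13.9% after 6 h. In both, KCl 6 h replicate 1 was the highest. The 4 positions of Gng2 passed only at 6 h and those of Ywhag at 2 h or 6 h. This choice favours high levels at these times, so that the contrast with 0 h is a description. The median coverage of these 3 clusters was 22 to 56 reads per library. Ube2r2, which encodes a ubiquitin-conjugating enzyme, had a single run of 7 cytosines in an 11-nt arm whose other arm was rich in G. Its levels were 21.1% and 17.7%, 15.6% and 11.2%, and 23.2% and 21% at the same times, with KCl 2 h replicate 2 the lowest.

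The median difference between replicates was 4.5, 5, and 5 percentage points in the order of time for GC-rich positions, 0.7, 0.3, and 0.9 for G-poor positions, and 4.1, 6.2, and 22.1 for the others. The levels above 90% of 70 of the 129 G-poor positions leave little room for a difference, and 26 of the 42 positions of the others lay in Ywhaz. In a comparison of replicate 1 with replicate 2 by Fisher's exact test, two-sided and adjusted over all passing positions, 3 of 362 clustered positions differed at 0 h, where 0.274% of all positions tested did. At 2 h it was 9 of 374, where 3.34% of all did, all 9 in Ids and Usp7 and higher in replicate 1. At 6 h it was 10 of 359, where 18.4% of all did, 8 of the 10 higher in replicate 2 and 2 in replicate 1, in Hs3st5, Ids, Junb, and Mgat4b. The rule asked both replicates of a time point to pass, as 269, 300, and 287 of the tested positions did at the time compared, so that the values tested took part in choosing the positions and these counts are a description. With a difference of at least 10 percentage points as well, 4 of the 10 at 6 h were called.

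Between time points, few clustered positions differed, and apart from those of Ube2r2 and Trappc3l they lay in GC-rich clusters. A position was tested only if it passed at the time point not compared, so that its own level in the libraries compared had not chosen it. Its neighbours could still have passed in these libraries, and with clusters rebuilt from the time point not compared alone, 259, 273, and 247 positions were tested and 6, 13, and 18 called. Reads were summed over replicates and compared by Fisher's exact test, two-sided, and a position was called at an adjusted p of at most 0.05 over all passing positions tested. Positions of a cluster are read from the same molecules, so that calls within it are not independent.

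For 0 h vs. 2 h, the called positions lay in Mad2l2, 1 of the 36 clusters tested. Of 270 positions, 6 (2.22%) were called, all lower at 2 h and all in Mad2l2, whereas 6.31% of all positions tested were called, 5.51% higher and 0.8% lower at 2 h. The 8 positions averaged 59.2% at 0 h and 43.3% at 2 h, a difference of -15.9 points, with -17.6 in the replicate 1 pair and -14.3 in the replicate 2 pair. The 6 called positions fell by 14.9 to 20.7 points, with adjusted p between 6.1e-05 and 0.0378 by Fisher's exact test. Both 0 h libraries lay above both 2 h libraries, while KCl 6 h replicate 1 lay in the range of 2 h and replicate 2 in that of 0 h. Without KCl 0 h replicate 2 the count was 2, and without KCl 2 h replicate 1 it was 3 in 3 clusters, all lower. Without KCl 0 h replicate 1 there were 8 calls in 4 clusters, 3 higher and 5 lower, and without KCl 2 h replicate 2 there were 7 in 3 clusters, 2 higher and 5 lower, so that neither the single gene nor the single direction held for every choice of libraries.

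For 0 h vs. 6 h, 13 of 278 positions (4.68%) in 5 clusters were called, all lower at 6 h, where 8.95% of all positions tested were called, 6.32% higher and 2.62% lower at 6 h. Skida1, a gene with a CCG repeat in its coding sequence, had 5 of them, and the mean over its tested positions was 16.4% at 0 h and 7.71% at 6 h, a difference of -8.71 points. The 6 h libraries had 9.31% and 6.03%, and the 0 h libraries 17.5% and 14.7%. At 2 h, with 20.1% and 11.8%, the level had to be high, since the positions of Skida1 passed the filter at 0 h and 2 h and none passed at 6 h. In 1700020I14Rik, a long noncoding RNA gene, 2 positions were called, and the mean was 26.4% at 0 h and 15% at 6 h. Its 2 libraries at 6 h, with 15.5% and 14.4%, were the lowest of the 6. Mgat4b had 4 called positions with a small difference, from 18.8% to 15.8%, at its high coverage. Fam8a1 and Trappc3l had 1 called position each, and that of Trappc3l moved in opposite directions in the 2 replicate pairs. The count was 1, lower, without KCl 0 h replicate 2. It was 8 without KCl 6 h replicate 1 (2 higher and 6 lower), 21 without KCl 6 h replicate 2 (4 higher and 17 lower), and 16 without KCl 0 h replicate 1 (6 higher and 10 lower), and with all libraries kept the Cochran-Mantel-Haenszel test with the replicate block called 1 higher and 18 lower, so that the single direction did not hold under every setting. With a difference of at least 10 percentage points it was 4.

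For 2 h vs. 6 h, 18 of 250 positions (7.2%) in 5 clusters were called, where 10.6% of all positions tested were, 7.02% higher and 3.6% lower at 6 h. Higher at 6 h were 10 positions. Means here are over the tested positions of a cluster. Ube2r2 had 6 of the 10, with a mean of 13.4% at 2 h and 22.1% at 6 h. Fastk, a gene of a family of mitochondrial RNA-binding proteins, had 3, with means of 12.9% and 28.7%, and library levels of 16.2% and 9.70% at 2 h and 21.4% and 36.1% at 6 h. Ajm1, an apical junction gene, had 1, with means of 24.5% and 31.3%. Lower at 6 h were 8 positions, 4 in Fam8a1 (46.6% to 29.7%) and 4 in Skida1 (15.9% to 7.55%). The Fam8a1 difference was -9.06 points in the replicate 1 pair and -24.9 in the replicate 2 pair. All 18 positions had the same sign in both pairs, and with a difference of at least 10 percentage points 10 were called. The balance of directions turned with 1 library. Without KCl 2 h replicate 1, 16 positions were higher and 4 lower, and without KCl 2 h replicate 2, 1 was higher and 13 lower. Without KCl 6 h replicate 1, 5 were higher and 7 lower, and without KCl 6 h replicate 2, 7 were higher and 14 lower.

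**Figure D4:**
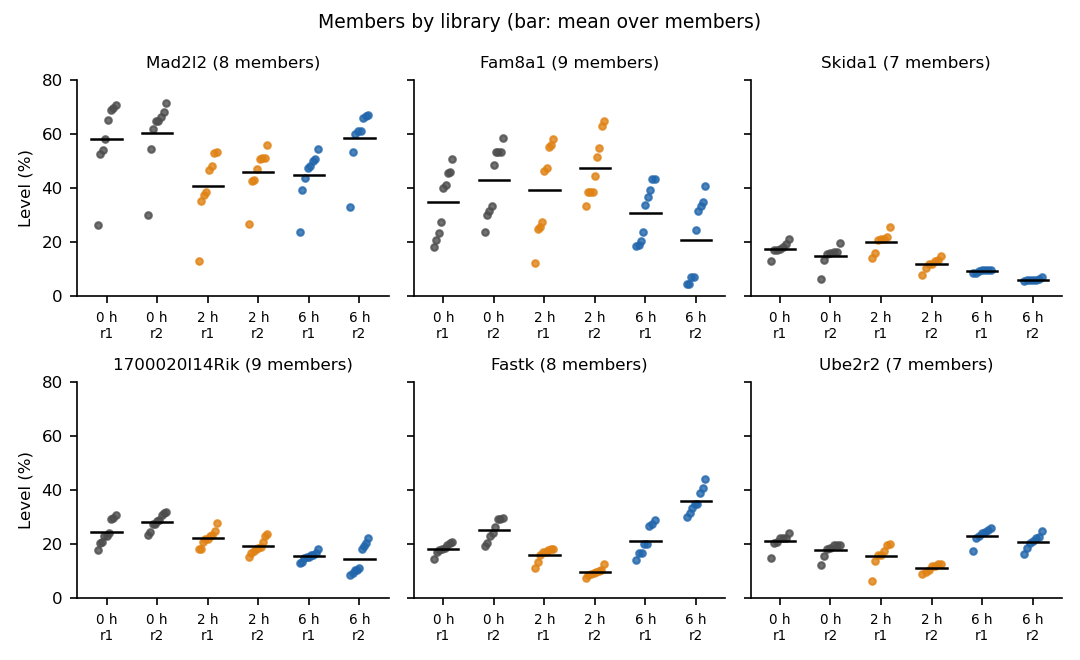
Methylation level of each clustered position (y axis, %) by library (x axis: hours of KCl, r1 and r2 for replicates 1 and 2; bars are means over positions) for 6 clusters with called positions. In Mad2l2 both 2 h libraries lie below both 0 h libraries, and in Skida1 both 6 h libraries lie below both 0 h libraries, with no position passing the filter at 6 h.

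With limma, which takes the spread between replicates into the test, no clustered position was called without the replicate block. On the log2 ratio of unconverted to converted reads, limma called 0 of 270, 0 of 278, and 0 of 250 in the 3 comparisons, and 0.0%, 0.0%, and 0.0% of all positions tested. With the replicate block, limma called 3, 0, and 0 clustered positions, 2 higher and 1 lower for the first, and 1.43%, 0.0%, and 0.0456% of all positions tested. An unadjusted p under 0.05 was reached by 12, 2, and 7 clustered positions with limma and by 34, 42, and 42 with Fisher's exact test, where 5.68%, 2.25%, and 3.33% of all positions tested reached it with limma and 13.4%, 18.5%, and 21.7% with Fisher's exact test. The smallest adjusted p of Mad2l2 with limma was 0.818 for 0 h vs. 2 h. On data simulated for 0 h vs. 2 h limma recovered next to none of the known changes, so that its lack of calls there decides nothing, and the other comparisons were not simulated. With spread between replicates simulated (an overdispersion of 0.01, set by hand), Fisher's exact test called 179 unchanged positions among the 2376 simulated. Without such spread it called 1. In the real data for 0 h vs. 2 h it called 150 of 2376. The calls of Fisher's exact test hold against read sampling, and whether they exceed the spread between replicates was not settled with 2 libraries per group.

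Over all clusters, differences between time points went both ways. The median over clusters of the level difference was -0.17 points for 0 h vs. 2 h (37 clusters), -0.15 for 0 h vs. 6 h (34 clusters), and -0.11 for 2 h vs. 6 h (37 clusters). A median near 0 over clusters that go both ways, several of them near 100%, says nothing of single clusters. Without regard to sign, the median difference of a clustered position was 2.48, 3.18, and 2.7 points, and that of all positions tested was 2.1, 2.95, and 3 points.

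**Figure D5:**
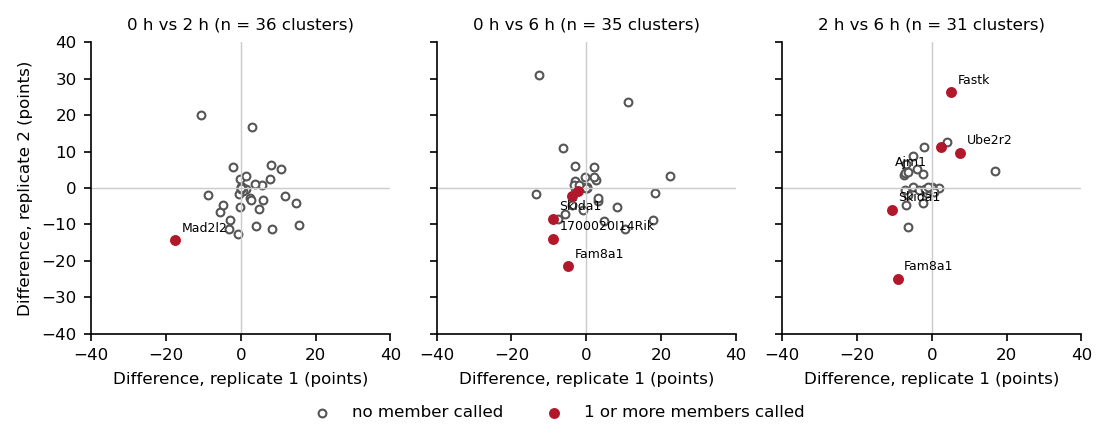
Difference in mean methylation level of each tested cluster (percentage points, later minus earlier time) in replicate pair 1 (x axis) and replicate pair 2 (y axis), for the 3 comparisons. Filled points are clusters with at least 1 called position, such as Mad2l2 at -17.6 and -14.3, and most open points lie around 0 in no common direction.

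At the edge of the rule, the 8 positions with exactly 3 other passing positions nearby lay in Gng2 and Map7d1 and had levels of 9.83% to 16.8% (median 12.8%). The 6 positions with exactly 2 lay in Ccny and Wwp2 and had levels of 9.63% to 100% (median 55.2%). The 451 positions with none or 1 lay in 416 genes with a median level of 14.3%, whereas the clustered positions had a median of 30.1% and 119 of them were above 50%. Of the 378, between 362 and 376 were listed per library and 340 in all 6, at a median coverage of 56.5 to 72 reads. Reads copied by PCR were counted each, and the tests on reads cover counting error only.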

How the data were processed

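Poly(A) RNA of 6 libraries (2 biological replicates for each of 3 times of KCl, 0 h, 2 h, or 6 h) was bisulfite-treated and sequenced. The authors trimmed the reads, used meRanTK to map them to GRCm38 without ambiguous reads, and used meRanCall to call cytosines. Per library they deposited counts of covering and unconverted reads and the methylation level as a fraction, for cytosines with at least 10 reads and 1 unconverted read. A position without an unconverted read is therefore absent, and levels are means over the libraries that list it. The deposited lists precede the filters of the study on reads with many unconverted cytosines, signal/noise, and secondary structure, which were not repeated. The submitters' processing notes name R 4.1.1 and mm10.

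The rule, the gene lists, and the tests were chosen with earlier results of these data known. Runs of clustered positions within 75 nt of each other on 1 strand formed a cluster. The reference base was C at 3090 of 3090 passing positions. Segments came from GENCODE M21, and sequences from the RefSeq GRCm38.p6 genome. Time points were compared by Fisher's exact test on summed counts with Benjamini-Hochberg adjustment, for positions with at least 10 reads in the 4 libraries, and by limma on log2((unconverted + 0.5)/(converted + 0.5)). Each test was checked on data simulated for 0 h vs. 2 h. There limma recovered next to none of the known changes with 2 libraries per group, and Fisher's exact test called many unchanged positions once spread between replicates was simulated.

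Genes were named by rule: the 12 clusters with the most positions, the 3 largest rises and falls of each comparison among clusters with a call and 1 direction in both replicate pairs, the 3 highest and 3 lowest clusters, and genes with more than 1 cluster. Others named were picked after their values had been seen. Alternatives were other minimums of coverage, level, distance, and neighbours, summed replicates, leaving out each library, the replicate block, limma, and other folding settings. Arm minimums of 5, 8, and 10 nt and the division by composition were added after the data had been seen. Deviations from group means of same-numbered replicates correlated at 0.097, 0.019, and -0.103 over 2791 positions. Over 340 clustered positions they correlated at 0.089, -0.030, and -0.225. Such values cannot show whether same-numbered samples shared a culture, so that tests were run with and without the replicate block.

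The software was samtools 1.23.1, RNAfold of ViennaRNA 2.7.2, limma 3.58.1 under R 4.3.3, and Python 3.11.15 with pysam 0.24.0, numba 0.67.0, scipy 1.17.1, numpy 2.4.6, matplotlib 3.10.9, and pandas 2.3.3. Some sequence windows are not reported here.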

Additional observations from a re-analysis of the deposited data

How the results depend on the processing

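The number of clustered positions, 378, was 235 with a coverage of at least 50 reads, 191 when a position had to pass at all 3 time points, and 2046 when replicates were summed before the minimums were applied, and 6 other alternatives gave 268 to 517. Against 6, 13, and 18 called positions in the comparisons of 0 h with 2 h, of 0 h with 6 h, and of 2 h with 6 h, limma called 0, 0, and 0, and limma with the replicate block called 3, 0, and 0. The Cochran-Mantel-Haenszel test with the replicate block called 6, 19, and 22. With a difference of at least 10 percentage points, the count was 4 between 0 h and 6 h and 10 between 2 h and 6 h, and it was 4 between the replicates of 6 h. Leaving out 1 library gave 2 to 8, 1 to 21, and 12 to 21 calls, and changed the balance of directions in each comparison. The median difference over clusters was -0.769 to 1.27, -0.807 to 0.0, and -0.917 to -0.035 points when 1 library was left out, and 0.329 and -0.28, -1.24 and 0.157, and -1.92 and 0.0 points in the replicate block by pair. The median pairing probability was 0.899 at 37 °C and 0.935 with 150 nt to each side. The share of clustered positions in an arm was 31.5% for arms of at least 10 nt. The lowest coverage of a tested position had a median of 66.5, 63, and 70 reads, which limits the differences that Fisher's exact test can call. The cause of these shifts was not tested.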
